A study of Mus musculus with 23 samples.

Results

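A set of 10 genes for enzymes that cut the extracellular matrix, and for their inhibitors, was followed in the quadriceps of corticosterone-treated mice. They were 5 proteases of the ADAMTS family (Adamts1, Adamts2, Adamts4, Adamts5 and Adamts16), the matrix metalloproteinases Mmp2 and Mmp14, and the tissue inhibitors of metalloproteinases Timp1, Timp2 and Timp3. The genes were taken by symbol, and each of the 10 matched a single Ensembl identifier among the 55573 gene identifiers of the count table. RNA was sequenced from whole quadriceps of 23 C57Bl6 mice aged 8 to 10 weeks, which carried a pellet under the skin of the neck for 2 weeks. The groups were 6 males with a vehicle pellet (100 mg cholesterol), 6 males with a corticosterone pellet (50 mg corticosterone and 50 mg cholesterol), 6 females with the vehicle pellet and 5 females with the corticosterone pellet. All mice were unmodified animals of that strain and were fasted for 5 hours before the muscle was collected. Corticosterone is the main glucocorticoid of mice, so the comparison asked how excess glucocorticoid changed the muscle transcriptome in each sex.

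Matrix metalloproteinases and ADAMTS enzymes are zinc proteases that are made as inactive precursors and cut collagens, gelatins and proteoglycans outside the cell. TIMPs bind the active site of these enzymes and block it, and TIMP2 has a double role, because together with the membrane protease MMP14 it also helps to activate the precursor of MMP2. In skeletal muscle most of these genes are known mainly from the connective tissue cells between the fibers.

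The enzymes and their inhibitors can be told apart by a few codons, which are shown here so that both classes can be compared by sequence. For the 7 proteases the coding strand of the zinc-binding site is given over 33 bases, with capitals on the codons of the 3 zinc-binding histidines, of the catalytic glutamate and of the residue at the eighth place (glycine in 5 enzymes, asparagine in Adamts1 and Adamts4). The reference sequences are from the GRCm38 build of the mouse genome, written from 5′ to 3′.
Adamts1: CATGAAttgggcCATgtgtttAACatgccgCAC
Adamts2: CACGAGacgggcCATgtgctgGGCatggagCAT
Adamts4: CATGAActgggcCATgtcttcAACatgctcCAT
Adamts5: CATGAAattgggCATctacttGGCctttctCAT
Adamts16: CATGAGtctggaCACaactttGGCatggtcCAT
Mmp2: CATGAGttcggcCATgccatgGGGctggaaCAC
Mmp14: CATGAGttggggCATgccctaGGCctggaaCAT

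Mmp2 and Mmp14 shared 27 of the 33 bases, as did Adamts1 and Adamts4, and the lowest match was 18 of 33 bases, between Adamts5 and Mmp2. The stretch lies within 1 exon in Mmp2 (chr8:92839279-92839311, forward strand) and in Mmp14 (chr14:54437627-54437659, forward strand), whereas an intron splits it in each of the 5 ADAMTS genes. The inhibitors have no such site. Their mature chain starts with the cysteine that occupies the enzyme's zinc, and the 24 coding bases from that codon are given with the cysteine, proline and histidine codons shared by the 3 inhibitors in capitals.
Timp1: TGTagcTGTgccCCAcccCACCCA
Timp2: TGCagcTGCtccCCGgtgCACCCG
Timp3: TGCacaTGCtctCCCagcCATCCC

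Timp1 and Timp2 matched at 16 of these 24 bases, Timp2 and Timp3 at 15, and Timp1 and Timp3 at 13. The stretches lie in coding exons at chrX:20871111-20871134 (Timp1, forward strand), chr11:118354989-118355012 (Timp2, reverse strand) and chr10:86300923-86300946 (Timp3, forward strand).

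Sequencing depth was even, with 20904150 to 21984477 reads assigned to genes per library. A gene was tested when more than 20 normalized counts were found in at least 4 mice of a group, which kept 13049 genes and 9 of the 10 genes described here. Adamts4 did not reach that level. Adamts16 reached it through the vehicle males alone and Timp1 through the treated females alone, the groups where each is highest. Levels are given as CPM, the reads of a gene per 1000000 reads on tested genes after scaling for composition. Fold changes are on the log2 scale and come from a quasi-likelihood fit in edgeR, with Benjamini-Hochberg adjustment of p across all 13049 genes and a threshold of 0.01. Fkbp5, a direct target of the glucocorticoid receptor, rose in both sexes (log2 fold change 3.36 in males and 3.05 in females), and the sex-linked transcripts matched the label in all 23 libraries. The 7 muscle fiber markers were present at 69198 to 194733 CPM in sum in the libraries. In 5 libraries (M8, M9, M12, F6 and F10) the summed hepatocyte markers reached 1029 to 2316 CPM, against at most 294 CPM in the others; M9 had the vehicle pellet and the other 4 had corticosterone. For some of the results, the value or the number of calls without these libraries is given below.

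Because the genes differ in exon length, their levels were ranked per kilobase. In vehicle males Timp2 stood first at 42.7 ± 7.68 CPM per kilobase (SD, n = 6), and its range did not overlap that of Mmp2, the second gene, at 18.5 ± 2.71. Mmp2 and Timp3 (15.6 ± 2.68) overlapped in range, although Mmp2 was the higher of the pair in each of the 6 mice. Adamts1 followed at 7.80 ± 1.94, separated from the genes above and below it. Adamts5, Adamts2 and Mmp14 lay between 2.16 and 2.74 CPM per kilobase and overlapped one another. Timp1, Adamts16 and Adamts4 were the lowest, at 0.607, 0.180 and 0.111 CPM per kilobase, each overlapping its neighbour. The first 4 places were the same in vehicle females, where Timp2 reached 37.5 ± 5.57, Mmp2 19.0 ± 4.65, Timp3 15.2 ± 1.80 and Adamts1 7.98 ± 1.54 CPM per kilobase (SD, n = 6). Mmp2 and Timp3 overlapped in these females too, with Mmp2 the higher in 5 of the 6.

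No gene of the 9 tested passed the threshold between vehicle males and vehicle females, where 0.958% of all tested genes passed it. An unadjusted edgeR p under 0.05 was found for 1 of the 9, Adamts5 (log2 difference 0.84, higher in males, edgeR adjusted p = 0.165), and for 1717 of all 13049 tested genes. DESeq2 and limma also called none of the 9.

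With corticosterone the order changed in both sexes. In treated males Timp3 (20.6 ± 2.37 CPM per kilobase) and Timp2 (19.8 ± 2.94) overlapped in first place, and Mmp2 dropped from the second to the fourth place at 3.99 ± 0.559. In treated females Timp2 remained first at 30.7 ± 7.0, Timp3 followed at 19.8 ± 3.40 and then Mmp2 at 7.80 ± 3.47 CPM per kilobase (SD, n = 5). The ranges of Timp2 and Timp3 overlapped there, although Timp2 was the higher in each of the 5 mice. Mmp2 overlapped Adamts1 (6.33 ± 1.29) and was the higher in 3 of the 5, so the order of these 2 genes was not resolved.

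**Figure D1:**
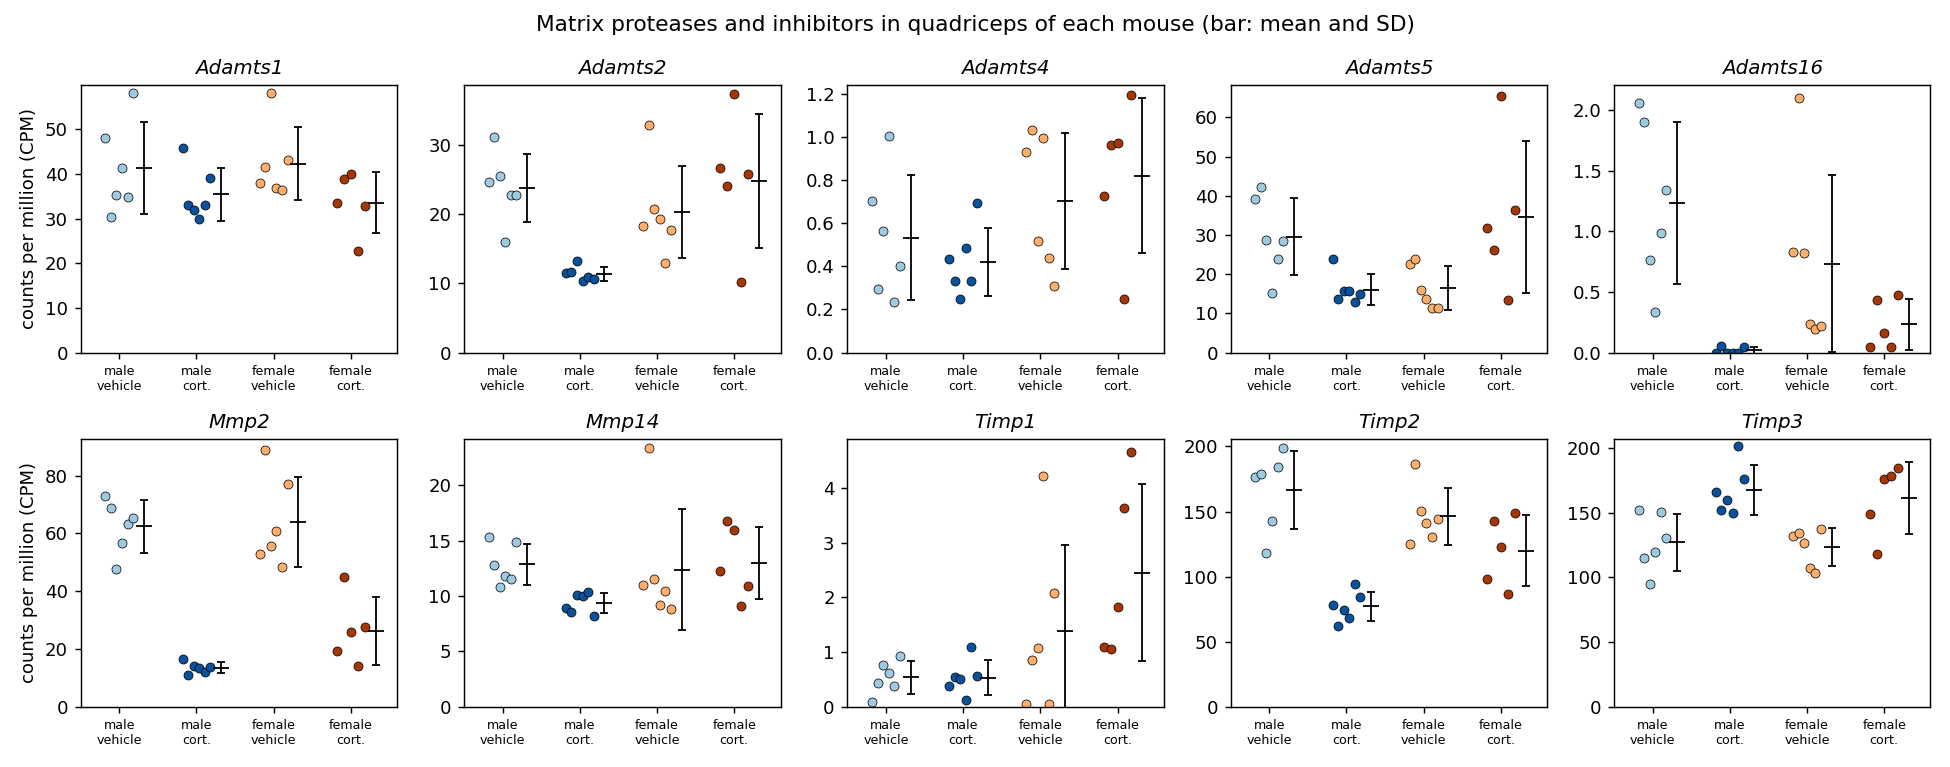
Level (CPM) of the 10 genes in each mouse, one panel per gene with its own linear axis from 0. Points are single mice, and the bars beside them give the mean and SD of the group, drawn down to 0 where the SD exceeds the mean. Mmp2 is lower in all treated mice of both sexes, Adamts2, Adamts16, Mmp14 and Timp2 lie below the vehicle range in all treated males but not in all treated females, and Timp3 is higher in 5 treated males and 4 treated females than in any vehicle mouse of that sex.

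In males, 4 of the 9 genes that passed the filter fell with corticosterone (Adamts2, Adamts16, Mmp2 and Timp2) and none rose, where 13.1% of all tested genes fell and 13.2% rose. In females 1 of the 9 fell (Mmp2) and none rose, where 7.40% of all tested genes rose, 13.4% changed in either direction and 783 of the 13049 genes fell. Leaving aside Adamts16, which entered through the group where it is high, 3 of 8 fell in males. The median log2 fold change of the 9 genes was -0.88 in males (-0.67 without Adamts16), beside -0.02 over all tested genes, and 0.07 in females (0.18 without Adamts16), beside 0.04. In males, 5 genes (Adamts2, Adamts16, Mmp2, Mmp14 and Timp2) had all treated mice below all vehicle mice, a separation downward that 11.1% of all tested genes showed. Adamts16 adds nothing to this count, because it passed the filter only through the vehicle males. Only Mmp2 had every treated female below every vehicle female, as did 4.34% of all tested genes. Without the 5 libraries high in hepatocyte markers, 4 genes were called in males and 1 in females. In bulk tissue, fewer cells of a type and less RNA per cell cannot be told apart.

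Mmp2 encodes gelatinase A, which cuts denatured collagen and basement membrane collagen; the gene lies at chr8:92827291-92853420 on the forward strand. Vehicle males had 47.7 to 73.1 CPM with a median of 64.2, and treated males 11.1 to 16.5 CPM with a median of 13.6. Vehicle females had 48.4 to 88.7 CPM with a median of 58.2, and the 5 treated females had 19.3, 44.9, 25.7, 14.1 and 27.5 CPM. No treated mouse reached the lowest vehicle mouse of its sex, and the treated female F4 came closest. The level was 4.64-fold lower in treated males (log2 fold change -2.21, SE 0.21, edgeR adjusted p = 1.10e-07) and 2.43-fold lower in treated females (-1.28, SE 0.22, adjusted p = 2.65e-04). The call in females was lost when females were fitted alone (adjusted p = 0.0106). The difference between the sexes in this response was -0.93 (SE 0.29, adjusted p = 0.0407), short of the threshold, and passed it without the treated female F8 (adjusted p = 0.00753). Across 30 alternative fits the difference ranged from -1.09 to -0.65, and the adjusted p rose to 0.242 at most.

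Mmp14, at chr14:54431612-54445364 on the forward strand, encodes the membrane-anchored metalloproteinase that activates the MMP2 precursor at the cell surface. Vehicle males had 10.8 to 15.3 CPM with a median of 12.3, and treated males 8.20 to 10.4 CPM with a median of 9.46. The male groups did not overlap, yet the drop was small (log2 fold change -0.46, SE 0.20, edgeR adjusted p = 0.0673); it passed the threshold when males were fitted alone (adjusted p = 0.00437) and without the vehicle female F3 (adjusted p = 0.00950). Vehicle females had 8.82 to 23.3 CPM with a median of 10.7, and treated females had 12.3, 16.8, 15.9, 9.10 and 10.9 CPM. The female groups overlapped throughout (log2 fold change 0.07, SE 0.20, adjusted p = 0.840), and F3 alone held the top value of the vehicle females.

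Among the ADAMTS genes, Adamts2 codes for the procollagen N-proteinase, which removes the amino-terminal propeptide from fibrillar procollagens. It spans chr11:50602084-50807573 on the forward strand. Vehicle males had 15.9 to 31.1 CPM with a median of 23.7, and treated males 10.3 to 13.2 CPM with a median of 11.2. Vehicle females had 13 to 32.9 CPM with a median of 18.8, and treated females 26.7, 24.0, 37.3, 10.1 and 25.9 CPM. In males the groups were separate, while in females 4 treated mice lay above the vehicle mean and F8 lay below every vehicle female. Adamts2 fell 2.09-fold in males (log2 fold change -1.06, SE 0.23, edgeR adjusted p = 8.85e-04), whereas the log2 fold change in females was 0.29 (SE 0.23, adjusted p = 0.382) and turned to -0.02 without the libraries high in hepatocyte markers. The male response was lower than the female response by 1.35 on the log2 scale (SE 0.33, adjusted p = 0.0174), which DESeq2 (adjusted p = 0.00220) and limma (adjusted p = 0.00230) placed past the threshold. Across 30 alternative fits this difference ranged from -1.55 to -0.98, and the adjusted p rose to 0.204 at most.

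Of 3 non-coding genes on the opposite strand at Adamts2, none shares exon bases with it. Among them, Gm12199 (chr11:50717670-50718915), lies in the span of Adamts2 and fell in both sexes, with a log2 fold change of -4.26 in males (SE 0.54, edgeR adjusted p = 3.21e-06) and -3.78 in females (SE 0.55, adjusted p = 6.87e-05). Reads were counted by strand, so its counts are separate from those of Adamts2, whose own level fell in males.

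Adamts5 encodes an aggrecanase that cuts the proteoglycans aggrecan and versican. It lies at chr16:85856173-85901828 on the reverse strand, and 53059 bases separate it from Adamts1. Vehicle males had 15.3 to 42.2 CPM with a median of 28.6, and treated males 13 to 23.8 CPM with a median of 15.2. Vehicle females had 11.3 to 23.9 CPM with a median of 14.8, and treated females 31.6, 26.3, 65.5, 13.3 and 36.4 CPM. All 6 treated males lay below the mean of the vehicle males, and 4 of the 5 treated females lay above every vehicle female, with F8 as the exception. Neither response passed the threshold, at a log2 fold change of -0.88 in males (SE 0.30, edgeR adjusted p = 0.0221) and 1.07 in females (SE 0.31, adjusted p = 0.0137). Both passed it with DESeq2 (adjusted p = 0.00940 and 0.00386) and with limma (0.00778 and 0.00571), the male value also without M7, F6 or F8 and when males were fitted alone, and the female value also without F3 or F8. The difference between the sexes was the most pronounced of the 9 genes by adjusted p (-1.95, SE 0.43, adjusted p = 0.0135), and passed the threshold with DESeq2 (5.10e-04), with limma (0.00284), and without F3, F4 or F8 (0.00739, 0.00782 and 0.00159). Across 30 alternative fits it ranged from -2.16 to -1.39, and the adjusted p rose to 0.142 at most. Without the libraries high in hepatocyte markers, which include F6 at 65.5 CPM, the female log2 fold change was 0.51 (adjusted p = 0.350).

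Adamts1, at chr16:85793827-85803113 on the reverse strand, codes for a protease of versican and aggrecan. Vehicle males had 30.3 to 58.2 CPM with a median of 38.3, and treated males 29.9 to 45.9 CPM with a median of 33.1. Vehicle females had 36.3 to 58.0 CPM with a median of 39.7, and treated females 33.4, 38.8, 40.1, 22.8 and 32.8 CPM. The groups overlapped in both sexes, and neither the log2 fold change in males (-0.22, SE 0.16, edgeR adjusted p = 0.281) nor that in females (-0.33, SE 0.17, adjusted p = 0.148) passed the threshold, so the neighbours Adamts1 and Adamts5 are listed with opposite signs in females and the same sign in males.

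Adamts16, at chr13:70727802-70841811 on the reverse strand, encodes a member of the family known from kidney and gonad. It was rare in this muscle. Vehicle males had 7 to 44 reads each, whereas the 6 treated males had 0, 1, 0, 0, 0 and 1 reads. Summed over the group, 2 reads in treated males stood against 156 in vehicle males, a level 75.5-fold lower after scaling (95% exact interval 20.6 to 629, for counting error only). Because the gene passed the filter only through the vehicle males, that fall is a description; in the fit without a gene filter its edgeR adjusted p was 4.33e-05. Vehicle females had 4 to 49 reads and treated females 1, 9, 4, 1 and 12 reads, or 99 against 27 in sum, a level 3.16-fold lower (95% exact interval 2.05 to 5.03). Every treated male was below every vehicle male, but 2 treated females reached the vehicle range, and the log2 fold change of -1.62 in females did not pass the threshold (SE 0.66, adjusted p = 0.0723). Leaving out a mouse moved this value between -2.10 (without F10) and -0.94 (without F3, adjusted p = 0.272), and F3 alone held 49 of the 99 vehicle reads.

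Adamts4 codes for another aggrecanase, at chr1:171250421-171260637 on the forward strand. With 5 to 21 reads in vehicle males, 5 to 15 in treated males, 7 to 24 in vehicle females and 16, 20, 24, 5 and 30 in treated females, it was below the level for testing. The groups overlapped in both sexes. The ratio of treated to vehicle counts was 0.802 in males (95% exact interval 0.547 to 1.17) and 1.20 in females (0.891 to 1.62). These intervals cover counting error only, and the mice of a group varied with a coefficient of variation of 37.5 to 54.0%.

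The inhibitors are taken in order of level. Timp2 (chr11:118301069-118355740, reverse strand) was the most abundant of the 10 genes per kilobase in vehicle mice. Vehicle males had 118 to 199 CPM with a median of 178, and treated males 62.2 to 94.6 CPM with a median of 76.5. Vehicle females had 125 to 186 CPM with a median of 142, and treated females 97.9, 143, 123, 86.4 and 149 CPM. The male groups were separate, whereas 3 treated females lay below the vehicle range and 2 lay within it. Timp2 fell 2.16-fold in males (log2 fold change -1.11, SE 0.15, edgeR adjusted p = 5.35e-06), and its log2 fold change in females was -0.29 (SE 0.15, adjusted p = 0.166). The male response was lower than the female response by 0.82 on the log2 scale (SE 0.21, adjusted p = 0.0202), which passed the threshold with DESeq2 (adjusted p = 0.00401) and without F8 (adjusted p = 0.00452). Across 30 alternative fits this difference ranged from -0.92 to -0.62, and the adjusted p rose to 0.221 at most.

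Timp3 codes for the inhibitor that stays bound to the matrix and also blocks ADAMTS4 and ADAMTS5. It lies at chr10:86300372-86349506 on the forward strand, inside the span of Syn3 on the opposite strand, with 1733 exon bases in common. Vehicle males had 95 to 152 CPM with a median of 125, and treated males 149 to 201 CPM with a median of 163. Vehicle females had 103 to 138 CPM with a median of 129, and treated females 149, 118, 176, 178 and 185 CPM. In all, 5 of 6 treated males and 4 of 5 treated females lay above the highest vehicle mouse of their sex. The log2 fold change was 0.40 in males (SE 0.12, edgeR adjusted p = 0.0132) and 0.38 in females (SE 0.13, adjusted p = 0.0300), neither past the threshold. The male value passed it with DESeq2 (adjusted p = 0.00375), with limma (0.00379), and without M1, M9 or F4 (0.00782, 0.00847 and 0.00679), and the female value without F4 (0.00549). Without the libraries high in hepatocyte markers the log2 fold change was 0.49 in males (adjusted p = 0.0157) and 0.25 in females (adjusted p = 0.322).

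A contrast for the mean of the male and female responses was added after these values were seen. Timp3 rose in it by 1.31-fold (log2 0.39, SE 0.09, edgeR adjusted p = 0.00120), where 15.4% of all tested genes rose. Mmp2 (-1.75, SE 0.15, adjusted p = 1.35e-08) and Timp2 (-0.70, SE 0.11, adjusted p = 1.85e-05) fell, which was 2 of the 8 genes besides Adamts16, where 15.1% of all tested genes fell. Adamts16 was also called lower, but it passed the filter only through the vehicle males, where it is high, so its fall is a description. Without the libraries high in hepatocyte markers the value of Timp3 was 0.37 with an adjusted p of 0.0110. The sexes differed in Timp3 by 0.01 (SE 0.18, adjusted p = 0.967), or by 0.24 without those libraries (adjusted p = 0.563).

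Timp1, at chrX:20870166-20874735 on the forward strand within the span of Syn1, encodes the inducible, secreted inhibitor. It was low and the most uneven of the inhibitors. Vehicle males had 2 to 21 reads and treated males 3 to 23 reads. Vehicle females had 1 to 89 reads, and treated females 24, 22, 45, 74 and 117 reads. The groups overlapped in both sexes, and the log2 fold changes of -0.01 in males (SE 0.75, edgeR adjusted p = 0.990) and 0.82 in females (SE 0.66, adjusted p = 0.381) did not pass the threshold.

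**Figure D2:**
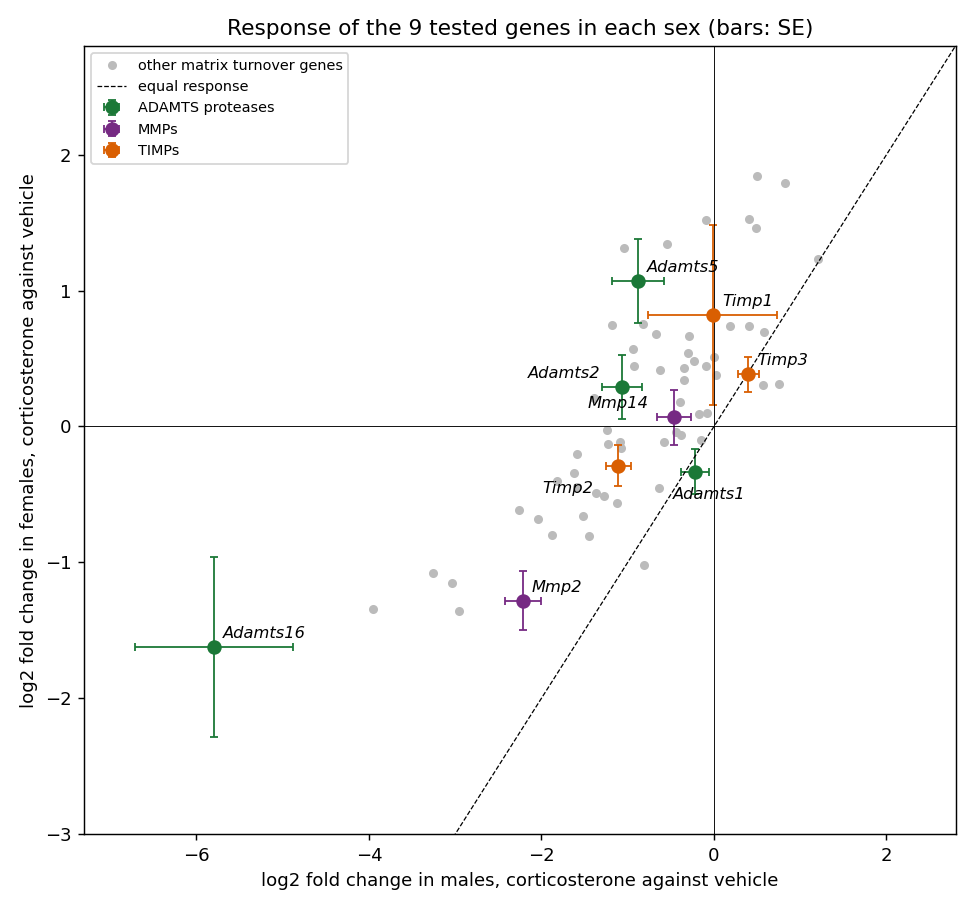
Log2 fold change with corticosterone in males (x axis) against females (y axis); colored points with SE bars are the 9 tested genes, grey points are 57 other genes of matrix turnover, and the dashed line marks equal responses. Both axes share the vehicle and treated libraries of their own sex only, and the fitted value of Adamts16 in males (-5.80) rests on 2 reads in treated males. Timp3 and Adamts1 lie close to the dashed line, while Adamts5, Adamts2, Timp2 and Mmp2 lie to its upper left.

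Ratios within a library do not depend on how libraries were scaled, and 6 of them were compared in each sex, chosen after the levels were seen. The ratio of Timp2 to Mmp2 transcripts per kilobase was 2.30 ± 0.220 in vehicle males and 5.02 ± 0.975 in treated males (SD, n = 6 each; exact permutation test, two-sided p = 0.00216, adjusted over 12 tests p = 0.00289). In females it was 2.03 ± 0.287 with vehicle (n = 6) and 4.25 ± 0.946 with corticosterone (n = 5; exact permutation p = 0.00216, adjusted p = 0.00289). These are the smallest p-values that the permutations can give, and no treated mouse overlapped a vehicle mouse of its sex. The ratio of inhibitor to gelatinase thus rose by 1.11 on the log2 scale in males and 1.05 in females. Timp2 itself did not rise (log2 fold change -1.11 in males and -0.29 in females), and Mmp2 fell further (-2.21 and -1.28). The ratios that hold Mmp2 share this fall and are not separate results.

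Mmp14 also rose relative to Mmp2, from 0.117 ± 0.0110 to 0.400 ± 0.0682 in males and from 0.109 ± 0.0297 to 0.302 ± 0.0777 in females (exact permutation adjusted p = 0.00289 in each sex). The ratio of Timp3 to Timp2 went from 0.368 ± 0.0455 to 1.04 ± 0.0619 in males (exact permutation adjusted p = 0.00289) and from 0.409 ± 0.0615 to 0.678 ± 0.215 in females (exact permutation adjusted p = 0.0182), where the groups overlapped.

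**Figure D3:**
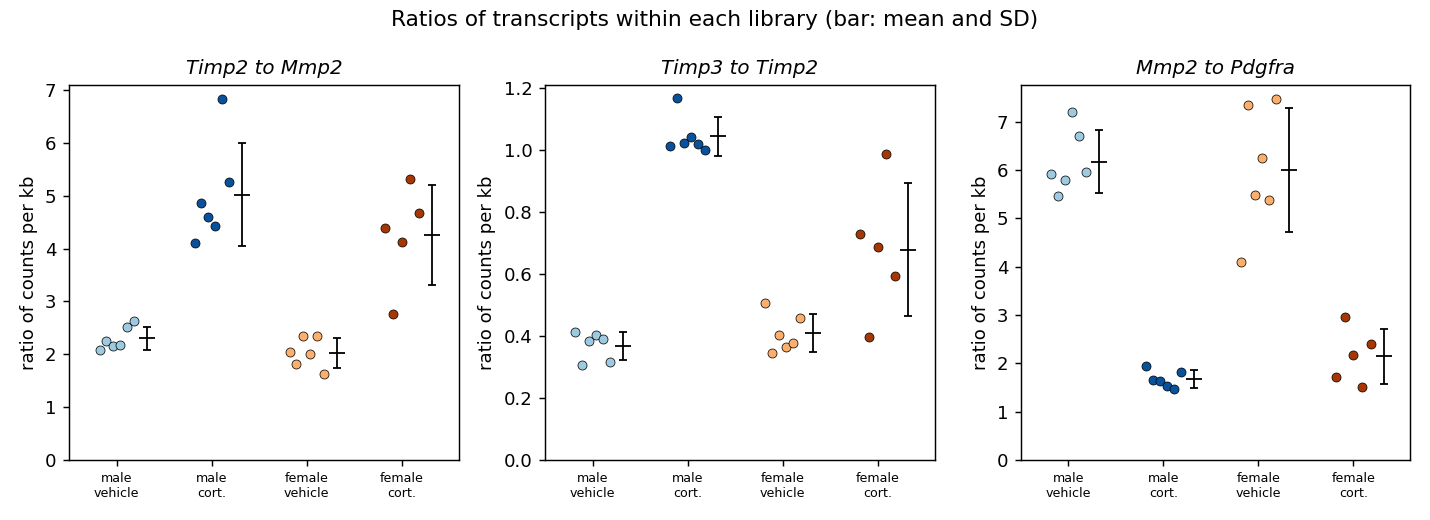
Ratios of reads per kilobase between pairs of genes within each library, by group, on linear axes from 0; points are mice and bars give the mean and SD. Treated mice of both sexes are above all vehicle mice for Timp2 to Mmp2 and below all for Mmp2 to Pdgfra, and Timp3 to Timp2 is near 1 in treated males.

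Several fibroblast markers fell as well. Of 8 fibroblast markers, 6 fell in males (Pi16 -2.68, Col6a2 -2.27, Col6a1 -2.06, Lum -1.91, Dpt -1.20 and Cd34 -1.20 in log2 fold change) and 3 in females (Col6a2 -1.0, Lum -0.98 and Col6a1 -0.74), and none rose. Over all tested genes, 13.1% fell in males and 6.0% fell in females, where 13.4% changed in either direction. The median log2 fold change of the 8 markers was -1.55 in males and -0.42 in females. Their summed level was between 694 and 1126 CPM in vehicle males, 387 and 568 CPM in treated males, 728 and 1102 CPM in vehicle females, and 600 and 953 CPM in treated females. Dcn and Pdgfra were the 2 markers not called in males. Pdgfra, the receptor that marks fibro-adipogenic cells, had a log2 fold change of -0.35 in males (edgeR adjusted p = 0.0337) and 0.15 in females (adjusted p = 0.439). Against the marker median, the log2 fold change of Mmp2 was lower by 0.66 in males and by 0.86 in females, while Timp2 and Adamts2 in males fell less than the median, with 6 of the 8 markers below either gene. The ratios to Pdgfra that follow were chosen after the levels were seen, and Pdgfra was the least changed of the 8 markers in males. Relative to Pdgfra in the same library, Mmp2 went from 6.17 ± 0.647 to 1.67 ± 0.178 in males and from 6.0 ± 1.29 to 2.15 ± 0.574 in females (exact permutation adjusted p = 0.00289 in each sex). Timp2 relative to Pdgfra fell by 0.77 on the log2 scale in males (exact permutation adjusted p = 0.00289) and by 0.45 in females (exact permutation adjusted p = 0.0213). Adamts2 relative to Pdgfra fell by 0.71 in males (exact permutation adjusted p = 0.00289) and differed by 0.09 in females (exact permutation adjusted p = 0.758).

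Of the other cell types, none of the 7 macrophage markers passed the threshold in either sex, and their sum was 40.1 to 155 CPM in vehicle males, 62.6 to 91.7 in treated males, 62.6 to 133 in vehicle females and 78.4 to 249 in treated females. Summed adipocyte markers ranged from 57.5 to 1706 CPM in vehicle females and from 36.7 to 4147 CPM in treated females. The highest value was that of F6, which also had the highest Adamts5. All 7 macrophage markers had a positive log2 fold change in females, with a median of 0.95. In males 6 of the 7 were negative and 1 was positive, with a median of -0.43. Of 5 satellite cell markers, 3 fell in females and 1 in males, where 6.0% and 13.1% of all tested genes fell. S100a8, the only 1 of 5 neutrophil markers that was tested, rose in both sexes (2.22 in males, edgeR adjusted p = 0.00531, and 2.91 in females, adjusted p = 0.00367). Of 6 adipocyte markers, Lep alone was called in females (6.79, edgeR adjusted p = 2.84e-04), with 5 positive and 1 negative in sign. In males the tendon marker Scx (1.51) and the endothelial marker Flt1 (0.71) rose, and the endothelial marker Tek (-0.52) and the mural marker Kcnj8 (-1.47) fell. No other tendon, endothelial or mural marker was called in either sex. The part of these cell types in the results was not tested.

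After corticosterone, males had lower levels than females in 4 of the 9 genes and higher levels in none, where 14.0% of all tested genes were lower. These were Adamts2 (log2 difference -1.13, SE 0.24, edgeR adjusted p = 0.00113), Adamts5 (-1.11, SE 0.31, adjusted p = 0.00765), Mmp2 (-0.97, SE 0.21, adjusted p = 0.00156) and Timp2 (-0.64, SE 0.15, adjusted p = 0.00263). None of the 4 remained past the threshold without the libraries high in hepatocyte markers, a fit with 4 treated males and 3 treated females, and 2 did without F10. With a replicate block by mouse number, Adamts5 and Mmp2 were not called. Some cell type markers were also lower in treated males than in treated females. Past the threshold were 7 of 8 fibroblast, 5 of 7 macrophage, 5 of 5 Schwann cell, 1 of 6 mural and 1 of 5 satellite cell markers. No endothelial, tendon, adipocyte, neutrophil, hepatocyte or muscle fiber marker was called. All 6 adipocyte markers were still lower in treated males, with log2 differences from -3.12 to -2.33 and a median of -2.97. Between vehicle males and vehicle females 5 of these 6 were lower and 1 was higher, with a median of -0.55. The Schwann cell markers had a median log2 difference of -0.86 between vehicle males and vehicle females, with none called. The part of these cell types in the result was not tested. The test of the difference between the male and female responses called none of the 9 genes with edgeR, where 0.690% of all tested genes passed. An unadjusted edgeR p under 0.05 was found for 5 (Adamts2, Adamts5, Adamts16, Mmp2 and Timp2), each with the lower response in males. It was found for 4187 of all 13049 tested genes. DESeq2 called 4 of the 9 and 896 of the 13049 genes, and limma called 2 of the 9 and 693 of the 13049. Adamts16, among the 5 and among the 4 of DESeq2, passed the filter only through the vehicle males, where it is high, so its value is a description. A batch that follows sex cannot be told apart from sex here, since neither labels nor methods give one.

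Treated females also varied more among themselves than treated males, with a larger coefficient of variation for 9 of the 10 genes. For Adamts2 it was 39.1% in treated females and 8.92% in treated males, for Mmp2 44.4% and 14%, and for Adamts5 55.8% and 24.4%; Adamts16, nearly absent in treated males, was the exception. Vehicle females had the larger coefficient for 6 of the 10 genes. Each treated male had 5 or 6 of the 10 genes below the vehicle range of its sex and at most 2 above it. Treated females were mixed, from F8 with 6 genes below and 1 above to F10 with 2 below and 4 above. The matching shares over all tested genes were not computed, so these counts are not read as particular to the 10 genes. For the whole transcriptome, the authors also reported that treated males lay close together and that treated females varied considerably.

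**Figure D4:**
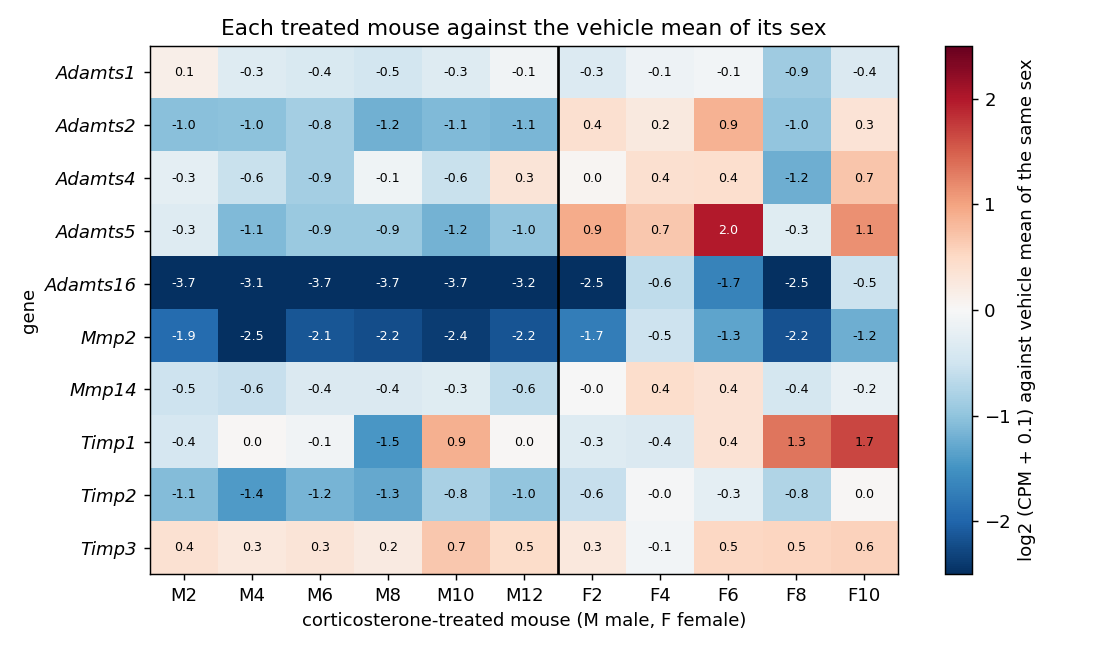
Log2 ratio of each treated mouse (columns, males left of the line) to the mean of the vehicle mice of its sex, for the 10 genes (rows), computed on CPM + 0.1 so that 0 reads can be shown; colors stop at 2.5 in either direction and the printed values do not. All 6 males are negative for Adamts2, Adamts5, Adamts16, Mmp2, Mmp14 and Timp2. All 5 females are negative for Mmp2, Adamts16 and Adamts1 and mixed in sign for Adamts2, Adamts5 and Mmp14.

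Promoters were compared because Adamts2 and Timp2 fell in males while Timp3 rose in the mean of the sexes. RefSeq start sites gave a 300-base window for 6 of the 10 genes (Adamts1, Adamts2, Mmp14, Timp1, Timp2 and Timp3; build GRCm38.p6), from 250 bases before to 50 bases after the start. Both strands were searched for the glucocorticoid response half-site AGAACA, the AP-1 site TGANTCA, the GC box GGGCGG and the TATA box TATAAA. The windows of Adamts2 (chr11:50601835-50602134, forward strand), Timp2 (chr11:118355362-118355661, reverse strand) and Timp3 (chr10:86300162-86300461, forward strand) are printed with the matches on either strand in capitals.
Adamts2: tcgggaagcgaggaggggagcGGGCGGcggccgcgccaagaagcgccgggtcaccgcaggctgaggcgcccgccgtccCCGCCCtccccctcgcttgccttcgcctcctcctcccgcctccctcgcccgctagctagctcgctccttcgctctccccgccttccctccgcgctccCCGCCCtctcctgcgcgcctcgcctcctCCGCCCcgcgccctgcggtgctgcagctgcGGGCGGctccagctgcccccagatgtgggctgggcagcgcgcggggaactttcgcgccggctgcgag
Timp2: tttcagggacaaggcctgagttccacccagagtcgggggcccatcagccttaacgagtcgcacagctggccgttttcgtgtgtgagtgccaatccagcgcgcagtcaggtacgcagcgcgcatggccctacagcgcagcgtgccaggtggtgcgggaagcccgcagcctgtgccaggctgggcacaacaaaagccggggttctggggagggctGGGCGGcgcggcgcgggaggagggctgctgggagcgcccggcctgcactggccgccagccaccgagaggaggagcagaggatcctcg
Timp3: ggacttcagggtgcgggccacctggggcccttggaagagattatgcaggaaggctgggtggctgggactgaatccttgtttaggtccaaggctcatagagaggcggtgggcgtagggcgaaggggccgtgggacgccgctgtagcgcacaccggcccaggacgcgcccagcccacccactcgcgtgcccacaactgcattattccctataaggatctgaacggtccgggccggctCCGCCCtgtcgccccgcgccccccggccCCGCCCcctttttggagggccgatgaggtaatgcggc

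All capitals in these 3 windows are GC boxes, 5 in Adamts2, 1 in Timp2 and 2 in Timp3, a motif held by 35.7% of 32851 promoters of the same length. The half-site AGAACA, found in 19.0% of those promoters, and the AP-1 site, found in 7.81%, were in none of the 6 windows, which says only that these letters are not there. TATAAA was in the window of Adamts1 alone, 32 bases before the start, and in 13.6% of all promoters. The windows of Adamts2, Timp2 and Timp3 had a GC content of 77.3%, 68.7% and 67.0%.

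The wider machinery of matrix turnover was read from a list of 82 further genes, 57 of which were tested. In males 23 fell and 1 rose, and in females 4 fell and 6 rose. Over all tested genes 13.1% fell and 13.2% rose in males. In females 6.0% fell, 7.4% rose and 13.4% changed in either direction, so the female counts of the list were near these shares. The median log2 fold change of the 57 genes was -0.64 in males and 0.18 in females. The male changes were spread over the substrates and the enzymes that process them. Among 11 tested substrates, 7 fell in males, and these were the collagen chains Col3a1 (-3.96), Col1a1 (-3.26), Col1a2 (-3.04) and Col5a1 (-1.82), the microfibril protein Fbn1 (-2.25), fibronectin (Fn1, -2.04) and the proteoglycan versican (Vcan, -0.93). In females Col3a1 fell (-1.34) and Fbln1, a basement membrane and elastic fiber protein, rose (1.84).

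Of 12 activators and other proteases, 7 fell in males. They were Ctsk, the collagen-cutting cathepsin K (-2.96), the plasminogen activator Plat (-1.62), Bmp1, which removes the carboxy-terminal propeptide of procollagen (-1.37), with its enhancers Pcolce (-1.28) and Pcolce2 (-1.23), and the proprotein convertases Pcsk6 (-1.24) and Pcsk5 (-1.18). Furin, the convertase that activates MMP14, rose (0.57). In females Ctsk fell (-1.35) and the serine protease Htra3 rose (1.52).

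Of 9 other ADAMTS proteases, 3 fell in males, namely the second procollagen N-proteinase gene Adamts14 (-1.88), Adamts12 (-1.09) and Adamts10 (-0.58), and none passed the threshold in females. Of 6 ADAMTS-like genes, which lack the protease domain, 3 fell in males (Papln -1.59, Adamtsl3 -1.08 and Adamtsl1 -0.81), and Adamtsl1 fell in females (-1.02). Among 7 other metalloproteinases, Mmp23 (-1.59) and Mmp15 (-1.12) fell in males, and in females Mmp15 fell (-0.56) while Mmp19 (1.52) and Mmp28 (1.46) rose. Of 6 membrane ADAM proteases, Adam19 fell in males (-1.51) and Adam15 rose in females (0.67). No gene of the 6 other inhibitors and clearance genes passed the threshold in males, whereas Timp4, the inhibitor most typical of heart and muscle, rose in females (1.79, edgeR adjusted p = 2.97e-04) and had a log2 fold change of 0.83 in males (adjusted p = 0.0276). Without the libraries high in hepatocyte markers, 22 genes of the list were called in males (1 higher and 21 lower) and 4 in females (1 higher and 3 lower). So at most 1 of the female rises named here was called in that fit.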

How the data were processed

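Total RNA of snap-frozen quadriceps was enriched for mRNA and sequenced as stranded paired-end libraries of 100 bases on the DNBseq platform. The authors aligned the reads to mm10 with STAR 2.7.3a and deposited raw read counts per Ensembl gene from HTSeq 0.12.4, counted by strand; they also used FastQC and MultiQC. The count table held 5 summary rows, which were left out and made up 10.7 to 15.3% of each library's total.

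Groups came from the sample titles. Genes with more than 20 normalized counts in at least 4 mice of a group were kept (13049), and 1 edgeR 4.0.16 quasi-likelihood model with TMM scaling was fitted to the 4 groups, with Benjamini-Hochberg adjustment and a threshold of 0.01 (R 4.3.3). Ratios within libraries were compared with exact two-sided permutation tests. DESeq2 1.42.0, limma 3.58.1 (voom with sample weights), other filters and scalings, each sex alone, a replicate block and leaving out each mouse were the alternatives. The procedure was tested on simulated data. Replicate libraries differed by more than sampling noise (chi-square per degree of freedom at least 15.2). Exon lengths and positions were read from a GRCm38 annotation.

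The 10 genes and all lists were chosen with earlier results of these data known. All 10 genes are described, and of the wider list the genes past the threshold in a sex are named, by size within each role; Fkbp5 served as treatment check, and genes overlapping the 10 and cell markers are named where a result turns on them. Intervals and floors cover counting error only.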

Additional observations from a re-analysis of the deposited data

Results flagged for a closer look

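Among 40 combinations of gene and group, 4 held a mouse whose distance to its nearest neighbour was unusually large for the range of the group, and chance gives such a gap in about 5% of groups. Vehicle female F5 had 58.0 CPM of Adamts1, with the next mouse at 43.0 CPM. Vehicle female F3 had 2.10 CPM of Adamts16 against 0.830 CPM in the next mouse, and 23.3 CPM of Mmp14 against 11.6 CPM. Treated male M2 had 23.8 CPM of Adamts5, with the next mouse at 15.6 CPM.

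Beside the 10 genes, 3 of those named had responses that differed between the sexes past the threshold of edgeR's interaction test. The male log2 fold change was lower than the female one by 1.92 for Pcsk5, a proprotein convertase (-1.92, SE 0.36, adjusted p = 0.00772), by 2.61 for Col3a1 (-2.61, SE 0.49, adjusted p = 0.00781) and by 1.32 for Col6a1 (-1.32, SE 0.27, adjusted p = 0.00988). These p-values lie close to the threshold of 0.01. Of 30 alternative fits, 12 called Pcsk5, 11 called Col3a1 and 7 called Col6a1, with the sign kept in each, and without the libraries high in hepatocyte markers the adjusted p-values were 0.0966, 0.0971 and 0.106. Over all tested genes, leaving out a mouse gave 1 (without M3) to 893 (without F8) such calls.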

How the results depend on the processing

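The 5 calls in single genes (Adamts2, Adamts16, Mmp2 and Timp2 in males, Mmp2 in females) were past the threshold in the same direction in 149 of 150 alternative fits. Of these fits, 30 were of Adamts16, which entered through the vehicle males, where it is high, so they only describe its fall. In females, DESeq2 and limma each called 2 of the 9 genes (Adamts5 in addition to Mmp2), fitting females alone called 0, and leaving out a mouse gave 1 to 2. For the difference between the sexes, DESeq2 called 4 and limma 2, and leaving out a mouse gave 0 to 4. Between treated males and treated females, 2 genes were beyond a log2 difference of 1, 0 were called without the libraries high in hepatocyte markers, an alternative chosen after seeing the data, and leaving out a mouse gave 2 to 5. Beyond a log2 fold change of 1, the mean of the sexes had 2 calls, Mmp2 and Adamts16, of which that of Adamts16 only describes its fall. Of the wider list in females, 4 genes were called with females alone and 4 without the libraries high in hepatocyte markers, and leaving out a mouse gave 6 to 15. Over all tested genes the 1748 calls in females became 561 with females alone and 460 without the libraries high in hepatocyte markers, and the 90 calls for the difference between the sexes became 896 with DESeq2, 693 with limma and 3 without those libraries.

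Some signs turned. The female log2 fold change of Adamts2 was -0.0222 and the mean response of Adamts5 was -0.19 without the libraries high in hepatocyte markers. Timp1 in males was 0.11 with limma, 0.00176 with males alone, and 0.17 without the libraries high in hepatocyte markers. The female log2 ratio of Adamts2 to Pdgfra was -0.21 without those libraries. Leaving out a mouse gave -0.36 to 0.22 for Timp1 in males, -0.0404 to 0.36 for Mmp14 in females, -0.0944 to 0.20 for the mean response of Adamts5, -0.00189 to 0.23 for the sex difference of Adamts1, -0.0808 to 0.0922 for that of Timp3, and -0.0814 to 0.30 for the ratio of Adamts2 to Pdgfra in females. The cause of these shifts was not tested.

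Males and females share mouse numbers. Same-numbered mice deviated together in 8 of 11 pairs (correlation across genes over 0.1, range -0.41 to 0.50), namely 6 of 6 vehicle pairs and 2 of 5 treated pairs. Of the 11 males with a same-numbered female, 5 correlated best with it. The main fit did not take the numbers as pairs, so what same-numbered vehicle mice share was not modeled in it. With a replicate block the difference between the sexes called 0 of the 9 genes, vehicle males against females 0, and treated males against females 3 (Adamts2, Adamts16 and Timp2, without Adamts5 and Mmp2). At this depth the 1 to 117 reads of Timp1 and the up to 30 reads of Adamts4 limit what could be seen.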
